A study of Homo sapiens with 6 samples.

Results

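The genes that encode the proteasome were examined in MDA-MB-231 cells, a widely used human line derived from triple-negative breast cancer, which lacks hormone receptors and HER2 amplification. Members were the protein-coding genes whose symbols run from PSMA to PSMG followed by a number, leaving out PSMB8 and PSMB9, and this rule took 46 of the 58735 genes in the deposited count table. The 3 libraries labelled PM2.5 came from cells exposed to airborne particulate matter of that size class, and the 3 libraries labelled Control are given no vehicle in the labels. RNA was taken with TRIzol after 48 h, and all libraries were made with a NEBNext Ultra kit. The design text calls the libraries biological replicates without saying how separate the cultures were, so p-values measure the spread between these libraries. The sources used here give neither the particle dose nor its origin.

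The proteasome is the large protease that degrades proteins tagged with ubiquitin. Its barrel-shaped 20S core has outer rings of alpha subunits (the PSMA genes), which gate the entrance, and inner rings of beta subunits (the PSMB genes), some of which carry the cutting sites. A 19S cap binds the ubiquitin tag, removes it, and unfolds the protein with a ring of ATPases (the PSMC genes). Dedicated chaperones assemble the particle, and other activators can replace the cap. Proteasome genes tend to be transcribed together. When the protease is inhibited, the transcription factor NFE2L1, made as a protein of the endoplasmic reticulum and released by VCP, NGLY1 and DDI2, raises many of them through antioxidant response elements.

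Total counts ran from 31846136 to 34691009 per library. Mesenchymal transcripts were abundant, with VIM at 1921 to 2696 CPM (a gene's counts scaled to the size of its library with TMM factors) and CD44 at 1438 to 1589 CPM, while ESR1 and the leukocyte marker PTPRC had no count in any library. The endothelial marker PECAM1 was present, at 55.1 CPM in PM2.5 and 43.7 CPM in Control libraries. The libraries labelled PM2.5 had less of the particle-inducible genes HMOX1, with a mean of 51.3 CPM against 812 CPM in Control libraries, and CYP1A1, with 2.73 against 6.28 CPM, so every direction below is for the libraries as labelled. The proliferation marker MKI67 averaged 158 CPM in PM2.5 and 23.7 CPM in Control libraries, and its part in the results was not tested. Control replicate 3 stood apart for the members: it was the lowest of the Control libraries for 29 of the 44 tested (65.9%) and the highest for 11 (25%), whereas over all 14975 tested genes these shares were 39.4% and 40.2%. Over all tested genes, too, its counts differed more from the other Control libraries than those differed from each other. The chi-square per degree of freedom was 33.05 and 36.25 against Control replicates 1 and 2, and 5.743 between Control replicates 1 and 2. Between PM2.5 replicates it ran from 10.59 to 28.91. Results that rest on Control replicate 3 are therefore also given without it. It was singled out by the members' own values, and leaving it out raises the Control mean of the members where it was lowest. Falls gained without it are therefore no independent support.

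The proteasome genes changed little as a group, and those that changed did so in both directions. Of the 46 members 44 passed the filter on low counts. The germ-cell alpha subunit PSMA8 and the thymus-specific beta subunit PSMB11 had no count in any library, which allows at most 0.0865 to 0.0942 CPM per library (3 counts of its total, covering counting error only). Among the 44 tested, 2 rose and 8 fell in edgeR's quasi-likelihood test (Benjamini-Hochberg adjusted), and 34 did not pass the threshold of 0.05. The called share was 22.7%, against 31.9% of all tested genes, with 16.1% of all tested genes higher and 15.8% lower. Without Control replicate 3, 3 members rose and 15 fell, or 40.9% of the 44, against 34.3% of all genes tested without that library. By direction, 6.82% of members were higher, against 16.9% of all genes, and 34.1% were lower, against 17.4%. The larger share of falls follows in part from leaving out a library that was low for the members. The 10 members called with all libraries were called again in that fit. The number that fell was 5 without PM2.5 replicate 1, PM2.5 replicate 2 or Control replicate 1, and 4 without Control replicate 2. Lower calls over all tested genes also became fewer in each of these fits. They numbered 2365 with all libraries and 1448 at the lowest, without PM2.5 replicate 1. The smaller counts alone therefore do not set the members apart from other genes.

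The sizes were small, and in bulk RNA a change in the share of cells and a change per cell cannot be told apart. The median log2 fold change of the 44 was -0.06, against -0.01 over all tested genes, and without Control replicate 3 it was -0.11. The median size of a change, regardless of sign, was 0.17 on the log2 scale for the members and 0.30 for all tested genes. A change of at least 0.5 was estimated for 2 members (4.55%), against 29.6% of all tested genes, and none reached 1. Groups were fully separated for 5 members that were higher in PM2.5 (11.4%, against 21.4% of all tested genes) and for 12 that were lower (27.3%, against 22.9%). Summed over all members, transcripts of the proteasome came to 5038, 4859.5 and 5104 CPM in PM2.5 replicates 1 to 3, against 5509, 5421 and 4969.6 CPM in Control replicates 1 to 3. Control replicate 3 lay within the range of the PM2.5 libraries, and Control replicates 1 and 2 lay above it.

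**Figure D1:**
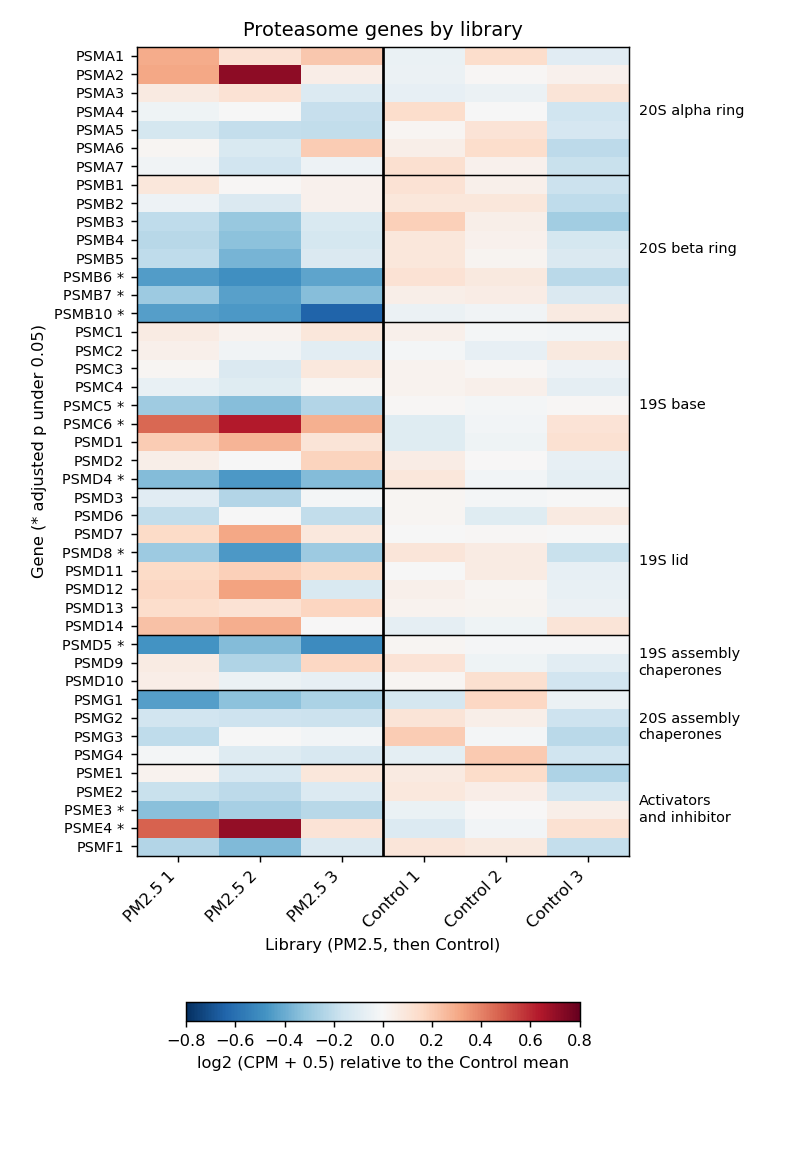
Level of each of the 44 tested proteasome genes (rows, by subcomplex) in each library (columns), as log2 (CPM + 0.5) relative to the mean of the 3 Control libraries. Red is above and blue below the Control mean, and an asterisk marks an adjusted p under 0.05; the strongest reds are PSMA2, PSMC6 and PSME4 in PM2.5 replicate 2, and in the beta ring PSMB3, PSMB4, PSMB5, PSMB6, PSMB7 and PSMB10 are blue in all PM2.5 libraries.

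Promoter windows were available from RefSeq (GRCh38.p14, 250 bases before to 50 after each gene's start) for 40 members. They are shown for the 2 members that rose and for the 2 members that fell with the smallest p among those with a window. Capitals mark matches on either strand to TGACNNNGC (the core of the antioxidant response element), CCAAT (bound by NF-Y) and GGGCGG (the GC box, bound by Sp1).
PSMC6, chr14:52706950-52707249, plus strand: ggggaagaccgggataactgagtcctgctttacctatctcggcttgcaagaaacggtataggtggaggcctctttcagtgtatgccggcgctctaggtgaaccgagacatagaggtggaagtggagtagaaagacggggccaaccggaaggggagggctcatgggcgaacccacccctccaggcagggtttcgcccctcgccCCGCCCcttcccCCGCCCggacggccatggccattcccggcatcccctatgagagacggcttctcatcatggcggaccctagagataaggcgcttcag
PSME4, chr2:53970944-53971243, minus strand: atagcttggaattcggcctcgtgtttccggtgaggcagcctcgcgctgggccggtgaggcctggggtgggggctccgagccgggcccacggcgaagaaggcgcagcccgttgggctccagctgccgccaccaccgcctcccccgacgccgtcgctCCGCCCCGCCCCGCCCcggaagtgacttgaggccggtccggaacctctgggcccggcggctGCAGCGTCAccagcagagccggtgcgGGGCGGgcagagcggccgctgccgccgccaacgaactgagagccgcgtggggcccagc
PSMD5, chr9:120842873-120843172, minus strand: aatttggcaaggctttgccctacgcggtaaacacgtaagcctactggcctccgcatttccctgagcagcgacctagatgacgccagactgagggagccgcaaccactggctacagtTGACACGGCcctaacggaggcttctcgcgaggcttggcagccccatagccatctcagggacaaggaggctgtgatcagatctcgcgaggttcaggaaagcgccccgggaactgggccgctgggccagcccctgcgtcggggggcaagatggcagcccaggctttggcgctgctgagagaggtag
PSMB10, chr16:67936801-67937100, minus strand: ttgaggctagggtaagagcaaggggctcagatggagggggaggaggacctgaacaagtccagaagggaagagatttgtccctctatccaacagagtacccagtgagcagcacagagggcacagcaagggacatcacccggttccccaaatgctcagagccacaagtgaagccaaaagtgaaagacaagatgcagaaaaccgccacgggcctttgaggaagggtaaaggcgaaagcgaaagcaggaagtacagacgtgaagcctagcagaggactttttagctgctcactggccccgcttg
The windows of both members that rose held GC boxes, with 2 in PSMC6 and 4 in PSME4, and the windows of PSMD5 and PSMB10 held 0. A GC box was present in 26 of the 40 member windows (65%), against 44.6% of 27305 windows of all genes. Of the 5 fallen members with a window, 1 held a GC box, as did 22 of the 31 that were tested and not called (71%). CCAAT was present in 18 of 40 (45%), against 35.7% of all windows.

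The antioxidant response core was present in 12 of the 40 windows (30%), against 13.6% of all windows. It was present in PSME4, which rose, in PSMD5, which fell, and in 10 of the 31 windows of tested members that were not called (32.3%). The matches of 8 of the 12 members are shown with up to 12 bases on each side, the match in capitals, to set those of the 2 called members beside 6 others. The 7 alpha subunit windows, those of PSMA1 to PSMA6 and of the untested PSMA8, held 0, and PSMA7 had no window.
PSMB3, chr17:38752625-38752657, plus strand: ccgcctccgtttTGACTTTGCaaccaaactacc
PSMC4, chr19:39971180-39971212, plus strand: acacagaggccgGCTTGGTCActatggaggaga
PSMD1, chr2:231056894-231056916, plus strand: tgaggaggcgacTGACTGAGCag
PSMD12, chr17:67366722-67366754, minus strand: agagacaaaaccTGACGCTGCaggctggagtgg
PSMD5, chr9:120843036-120843068, minus strand: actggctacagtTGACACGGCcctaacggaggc
PSMG2, chr18:12658687-12658719, plus strand: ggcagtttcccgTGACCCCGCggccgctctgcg
PSME1, chr14:24136096-24136128, plus strand: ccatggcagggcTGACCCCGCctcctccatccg
PSME4, chr2:53971007-53971039, minus strand: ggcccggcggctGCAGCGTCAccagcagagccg
The match in PSMC4 and PSME4 reads on the reverse complement, and the others read forward. A match describes the letters of the window only.

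In the beta ring 3 of 8 tested members fell, 0 rose (0 higher also at an unadjusted p under 0.05 and in DESeq2), against 15.8% of all tested genes lower and 16.1% higher, and 7 of 8 estimates were below 0, with a median log2 fold change of -0.23. The 3 that fell were catalytic subunits, 1 of them of the immunoproteasome. PSMB6, the beta 1 subunit with caspase-like activity (chromosome 17, 4796144 to 4798503, plus strand, ENSG00000142507, GRCh38), had 105, 101 and 106 CPM in PM2.5 replicates 1 to 3, against 155, 151 and 122 CPM in Control replicates 1 to 3. All PM2.5 libraries were below all Control libraries, and Control replicate 3 was nearest to them. PSMB6 fell 1.37-fold (log2 change -0.45 ± 0.10, SE, n = 3 each, adjusted p = 0.00284 in edgeR's quasi-likelihood test (Benjamini-Hochberg adjusted)).

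PSMB7, the beta 2 subunit with trypsin-like activity (chromosome 9, 124353466 to 124415444, minus strand, ENSG00000136930), had 238, 215 and 229.8 CPM in PM2.5 replicates 1 to 3, against 301, 303 and 269 CPM in Control replicates 1 to 3. The groups did not overlap, and PSMB7 fell 1.28-fold (log2 change -0.35 ± 0.09 (SE), adjusted p = 0.00887). Without Control replicate 2 its adjusted p was 0.0501, just past the threshold. PSMB5, the beta 5 subunit with chymotrypsin-like activity and the target of bortezomib, had 177, 157 and 187 CPM in PM2.5 replicates 1 to 3, against 217, 206 and 187 CPM in Control replicates 1 to 3. PM2.5 replicate 3 and Control replicate 3 were level at the border, and the change missed the threshold (log2 change -0.23 ± 0.10 (SE), adjusted p = 0.091). Without Control replicate 3 it passed, at a log2 change of -0.29 and adjusted p = 0.0214 by edgeR.

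The immunoproteasome replaces these subunits with PSMB9, PSMB10 and PSMB8, which interferon induces. PSMB10 (chromosome 16, 67934502 to 67937087, minus strand, ENSG00000205220), the counterpart of PSMB7, had 6.42, 6.33 and 5.54 CPM in PM2.5 replicates 1 to 3, against 8.59, 8.73 and 9.36 CPM in Control replicates 1 to 3. The groups did not overlap, and it fell 1.46-fold, the largest fall among the members (log2 change -0.54 ± 0.16 (SE), adjusted p = 0.0141). Exons of the gene AC040162.1, on the same strand, cover 58.3% of its coding bases (34.8% of its exonic bases), which leaves its level and its ratio to PSMB7 uncertain, and held at most 0.291 CPM in any library. Outside the membership, PSMB8 had 49.8, 50.3 and 51.9 CPM in the PM2.5 libraries and 69.5, 70.1 and 63.1 CPM in the Control libraries, and fell (adjusted p = 0.00302 by edgeR). PSMB9 had 62.6, 58.7 and 62.9 CPM in the PM2.5 libraries and 81.03, 83.1 and 64.6 CPM in the Control libraries, and also fell (adjusted p = 0.0337 by edgeR). Neither overlapped between the groups. Exons of PSMB8-AS1 and PSMB9, on the opposite strand, cover 20.6% of the exonic bases of PSMB8. Exons of PSMB9 alone cover 4.6% of them, and exons of PSMB8 cover 4.5% of those of PSMB9. Without a stated strand setting, reads of PSMB8 and PSMB9 cannot be told apart there, which also touches their ratios below. The PSMB9 call was lost without PM2.5 replicate 1 or 2 or Control replicate 1 or 2, at adjusted p from 0.103 to 0.16.

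Set against its constitutive counterpart per kilobase of gene length, PSMB8 over PSMB5 was 0.172 ± 0.014 in PM2.5 and 0.196 ± 0.006 in Control libraries (SD, n = 3 each). PSMB9 over PSMB6 was 0.278 ± 0.0047 in PM2.5 and 0.252 ± 0.0072 in Control libraries. PSMB10 over PSMB7 was 0.0259 ± 0.0026 in PM2.5 and 0.0296 ± 0.0034 in Control libraries. The first ratio was lower and the second higher in every PM2.5 library than in every Control library, while the third overlapped. An exact two-sided permutation test gave p = 0.10, 0.10 and 0.30 for the 3 ratios, with 0.10 the smallest p that 3 libraries against 3 can give, and 0.15, 0.15 and 0.30 after Benjamini-Hochberg adjustment.

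**Figure D2:**
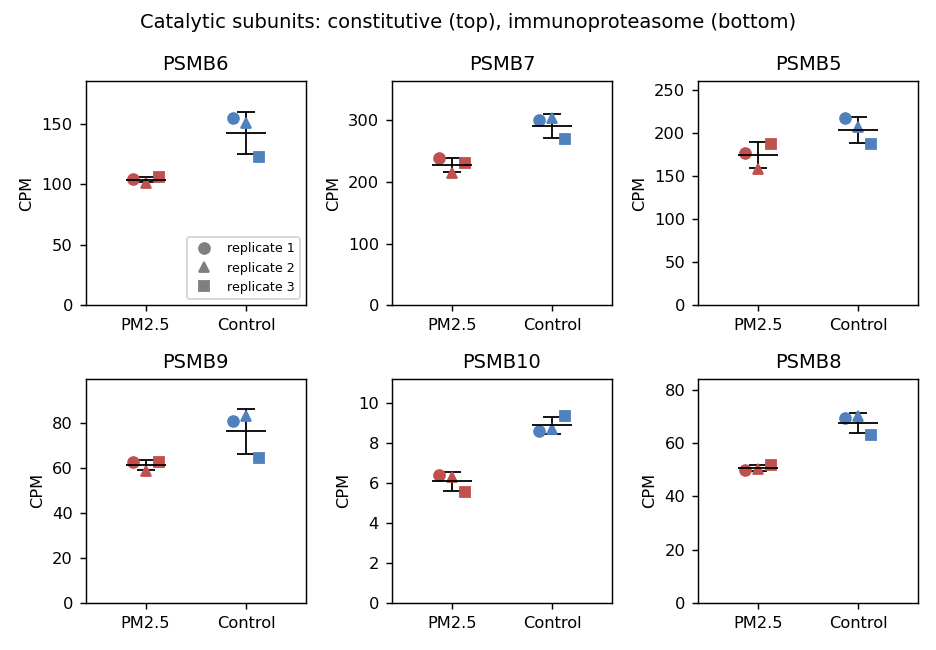
CPM of the 6 catalytic beta subunits in each library, PM2.5 on the left and Control on the right of each panel, with the constitutive subunits above the immunoproteasome subunits that replace them. Marks are replicates, long dashes the mean and bars the SD; PSMB5 alone does not separate the groups, and Control replicate 3 (square) is the lowest Control library for all but PSMB10.

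The remaining beta subunits are structural. PSMB3 had 121, 113 and 128 CPM in the PM2.5 libraries and 159, 144 and 115 CPM in the Control libraries. PSMB4 had 203, 189.6 and 216 CPM in the PM2.5 libraries and 254, 244 and 216 CPM in the Control libraries. In PSMB3 Control replicate 3 lay among the PM2.5 libraries, and in PSMB4 it was level with the highest of them. Neither was called with all libraries (log2 changes -0.21 ± 0.11 and -0.23 ± 0.10, SE). Without Control replicate 3 both fell, by 0.33 and 0.30 on the log2 scale (adjusted p = 0.00889 and 0.011 by edgeR). In that fit 6 of 8 beta genes (75%) fell, against 17.4% of all genes. Control replicate 3 was the lowest Control library for 7 of the 8, so leaving it out favours falls and the share is no independent support. PSMB1 averaged 143 ± 4.16 CPM in PM2.5 and 138 ± 14 CPM in Control libraries, and PSMB2 96.3 ± 5.21 CPM in PM2.5 and 99.02 ± 11.2 CPM in Control libraries, which are differences within the SD of the Control libraries. Summed over the beta ring, the level was 1094, 1013 and 1116 CPM in PM2.5 replicates 1 to 3, against 1349, 1304 and 1128 CPM in Control replicates 1 to 3. All PM2.5 libraries were below all Control libraries, with PM2.5 replicate 3 and Control replicate 3 nearest to each other. The ratio of the group means was 0.852, and 0.81 without Control replicate 3.

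In the alpha ring 0 of 7 tested subunits passed edgeR's quasi-likelihood test in either direction, against 31.9% of all tested genes. The count was 0 also at an unadjusted p under 0.05 and in DESeq2. The estimates ran from -0.18 to 0.52 with a median of 0.03. That median was -0.06 without Control replicate 3 and -0.06 when genes with a mean under 5 CPM were left out. PSMA7, the most abundant alpha transcript, averaged 252 ± 11.9 CPM in PM2.5 and 266 ± 28.3 CPM in Control libraries (SD, n = 3 each, log2 change -0.07 ± 0.10, SE). PSMA5 averaged 168 ± 3.79 CPM in PM2.5 and 189.9 ± 15.8 CPM in Control libraries, with all PM2.5 libraries below all Control libraries. It did not pass the test (adjusted p = 0.164), but without Control replicate 3 it fell by 0.24 on the log2 scale (adjusted p = 0.023 by edgeR). PSMA3 averaged 55.3 ± 4.48 CPM in PM2.5 and 54.2 ± 3.47 CPM in Control libraries, and PSMA4 73.4 ± 4.88 CPM in PM2.5 and 77.3 ± 8.13 CPM in Control libraries.

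The alpha subunits PSMA1, PSMA2 and PSMA6 were counted at lower levels than the other tested alpha subunits, although the ring holds its subunits in equal number. PSMA2 had 1.55, 2.23 and 1.22 CPM in the PM2.5 libraries and 1.11, 1.17 and 1.199 CPM in the Control libraries. PSMA6 averaged 4.54 ± 0.578 CPM in PM2.5 and 4.41 ± 0.597 CPM in Control libraries, and PSMA1 21.3 ± 1.37 CPM in PM2.5 and 18.3 ± 1.65 CPM in Control libraries. Exons of other annotated genes cover 97.1% of the coding bases of PSMA2, 88.6% of those of PSMA1 and 70.4% of those of PSMA6. The overlapping genes on the same strand, AC010132.3, AC018523.2 and AL121594.1, had no count in any library. Of the summed CPM of PSMA6 and its 4 annotated pseudogenes, 26.3% fell on the pseudogenes. The levels of these 3 genes are therefore uncertain, and whether the overlap lowers them was not tested. PSMA2 had the highest estimate of all members, at 0.52 ± 0.32 (SE), which did not pass the test (adjusted p = 0.233 by edgeR), and PSMA1 was estimated at 0.22 ± 0.12.

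**Figure D3:**
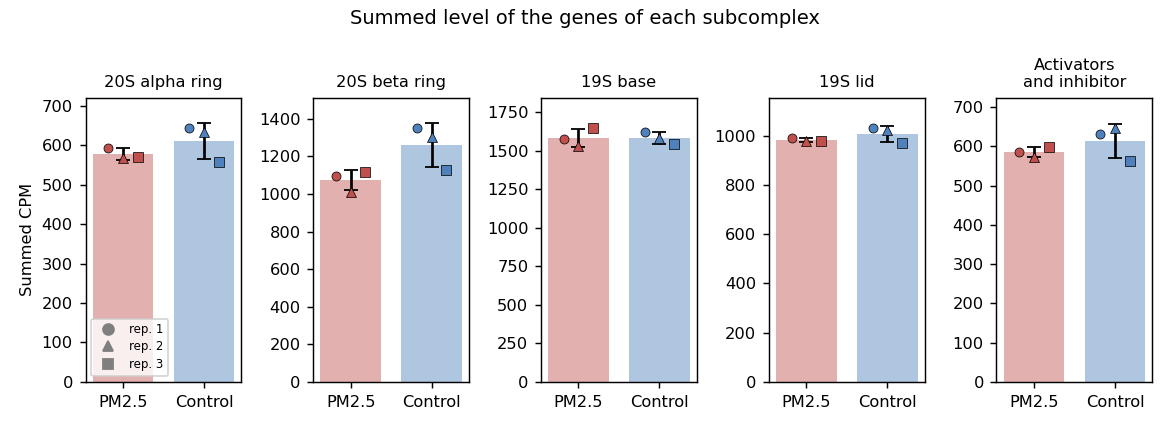
Summed CPM of the tested and untested genes of 5 subcomplexes, PM2.5 left and Control right. Bars are means, error bars the SD over 3 libraries and marks the libraries; of the alpha ring, beta ring, base, lid and activator panels, that of the beta ring shows all PM2.5 libraries below all Control libraries, and Control replicate 3 (square) is the lowest Control library in each panel.

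In the 19S base, which holds the ATPase ring and the largest scaffold subunits, 1 member rose and 2 fell of 9 tested. These are 11.1% and 22.2%, against 16.1% higher and 15.8% lower among all tested genes. PSMC6, an ATPase subunit (chromosome 14, 52707172 to 52728587, plus strand, ENSG00000100519), had 75.3, 84.9 and 66.5 CPM in PM2.5 replicates 1 to 3, against 50.97, 53.6 and 58.9 CPM in Control replicates 1 to 3. The groups did not overlap, with PM2.5 replicate 2 highest. PSMC6 rose 1.39-fold (log2 change 0.47 ± 0.11 (SE), adjusted p = 0.00323), and stayed called in all 14 alternative settings, between 0.38 and 0.55. Another ATPase, PSMC5 (chromosome 17, 63827152 to 63832026, plus strand, ENSG00000087191), moved the other way, with 97.4, 93.9 and 101 CPM in PM2.5 replicates 1 to 3, against 119, 118 and 119 CPM in Control replicates 1 to 3. It fell 1.22-fold (log2 change -0.29 ± 0.09 (SE), adjusted p = 0.0204), and the call was lost without PM2.5 replicate 1 or 2 or Control replicate 1 or 2, at adjusted p up to 0.128. Exons of FTSJ3, on the opposite strand, cover 19.5% of the exonic bases of PSMC5, and FTSJ3 itself was estimated at -0.23. Without a stated strand setting, reads of these 2 genes cannot be told apart there.

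PSMD4, a ubiquitin receptor of the cap (chromosome 1, 151254703 to 151267479, plus strand, ENSG00000159352), had 157, 145 and 157 CPM in PM2.5 replicates 1 to 3, against 214, 197 and 190.2 CPM in Control replicates 1 to 3. It fell 1.31-fold with no overlap between the groups (log2 change -0.39 ± 0.09 (SE), adjusted p = 0.00434), and stayed called in all 14 alternative settings. The other ATPases lay close together. PSMC1 averaged 62.04 ± 1.39 CPM in PM2.5 and 59.4 ± 1.48 CPM in Control libraries, PSMC2 60.7 ± 2.59 CPM in PM2.5 and 61.7 ± 3.2 CPM in Control libraries, PSMC3 145 ± 10 CPM in PM2.5 and 145 ± 3.67 CPM in Control libraries and PSMC4 159 ± 6.62 CPM in PM2.5 and 164 ± 7.2 CPM in Control libraries, and their groups overlapped. Exons of NRDE2, on the opposite strand, cover 75.8% of the exonic bases of PSMC1, whose level is uncertain for that reason. The scaffold PSMD2 was the most abundant member by count, at 729.5 ± 48.6 CPM in PM2.5 and 692 ± 29.7 CPM in Control libraries (log2 change 0.08 ± 0.10, SE). Its partner PSMD1 averaged 102 ± 5.91 CPM in PM2.5 and 88.7 ± 6.99 CPM in Control libraries and was not called (log2 change 0.19 ± 0.10, adjusted p = 0.133), though without Control replicate 3 it rose by 0.26 (adjusted p = 0.0313 by edgeR). The median of the base was -0.003, and 0.05 without PM2.5 replicate 2.

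In the 19S lid 1 of 8 members fell (12.5%, against 15.8% of all tested genes) and 0 rose (against 16.1%). The median log2 fold change was 0.14. PSMD8 (chromosome 19, 38374536 to 38383824, plus strand, ENSG00000099341) had 219, 195 and 219 CPM in PM2.5 replicates 1 to 3, against 286, 281 and 237 CPM in Control replicates 1 to 3. It fell 1.27-fold with no overlap (log2 change -0.35 ± 0.10 (SE), adjusted p = 0.0153), but the call was lost without PM2.5 replicate 1 or 2 or Control replicate 1 or 2, at adjusted p up to 0.0829. PSMD14, the deubiquitinase that cuts the ubiquitin chain from the substrate, had 71.2, 74.03 and 60.5 CPM in PM2.5 replicates 1 to 3, against 57.3, 58.9 and 64.7 CPM in Control replicates 1 to 3. PM2.5 replicate 3 lay among the Control libraries, and the change missed the threshold (log2 change 0.18 ± 0.10 (SE), adjusted p = 0.185).

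Of the structural lid subunits that did not pass the test, PSMD11, PSMD13 and PSMD7 were higher and PSMD3 was lower in every PM2.5 library than in every Control library. Such separation was found for 21.4% (higher) and 22.9% (lower) of all tested genes. PSMD11 had 166, 171 and 166 CPM in the PM2.5 libraries and 149, 157 and 143 CPM in the Control libraries, with an estimate of 0.16 ± 0.09 (SE). PSMD13 averaged 161 ± 3.1 CPM in PM2.5 and 146 ± 4 CPM in Control libraries, with an estimate of 0.14 ± 0.09, and PSMD7 averaged 48.7 ± 4.03 CPM in PM2.5 and 42.8 ± 0.209 CPM in Control libraries, with an estimate of 0.19 ± 0.10. Their adjusted p-values were 0.171, 0.227 and 0.166 in edgeR's quasi-likelihood test (Benjamini-Hochberg adjusted). PSMD3 had 185, 168 and 195 CPM in the PM2.5 libraries and 199, 195 and 196 CPM in the Control libraries, with an estimate of -0.11 ± 0.09. PSMD12 was estimated at 0.13 ± 0.11 and PSMD6 at -0.13 ± 0.10. Exons of AC009120.2 cover 30.7% of the exonic bases of PSMD7, on the opposite strand. Summed, the base came to 1576, 1529.7 and 1646 CPM in PM2.5 replicates 1 to 3, against 1625, 1583 and 1547 CPM in Control replicates 1 to 3, and the lid to 991, 978 and 978 CPM in PM2.5 replicates 1 to 3, against 1029.6, 1022 and 969 CPM in Control replicates 1 to 3. In both the groups overlapped, with ratios of the group means of 0.9995 and 0.975.

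**Figure D4:**
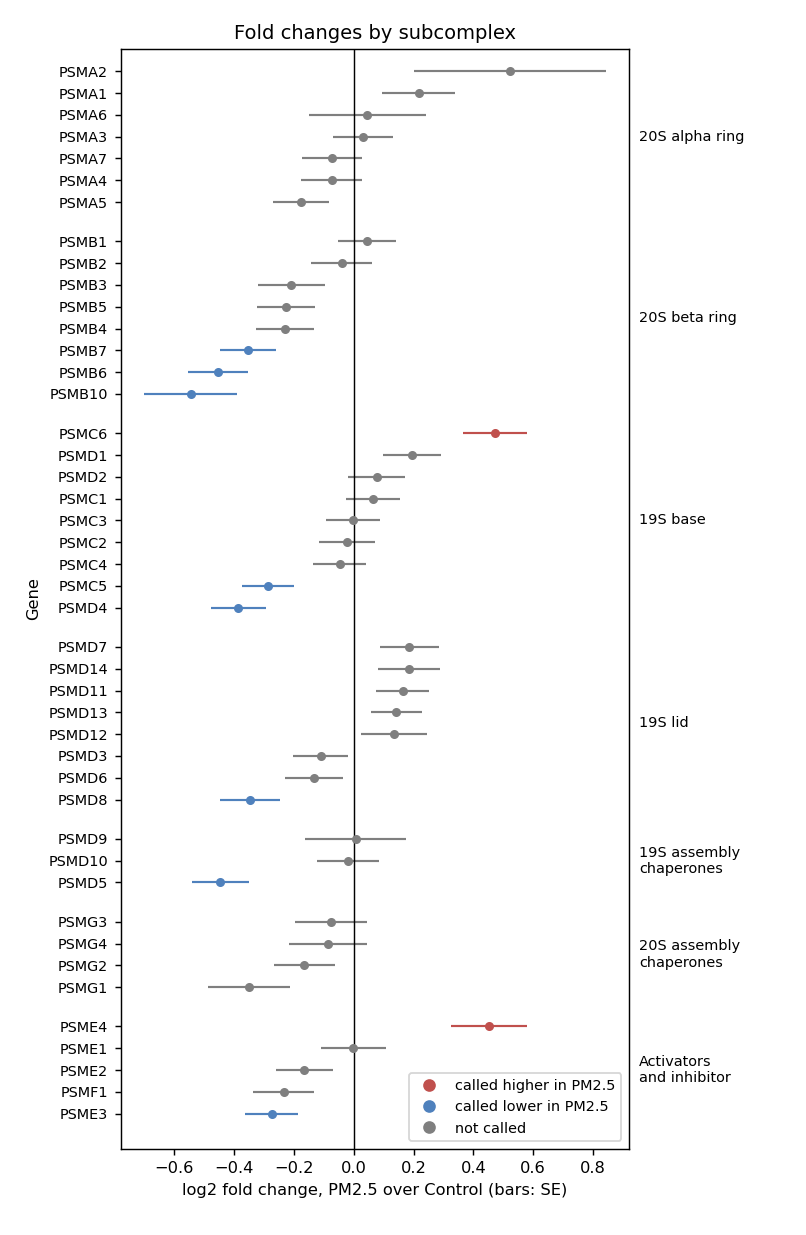
Log2 fold change (PM2.5 over Control) of each tested member with its SE, ordered within each subcomplex. Red marks the 2 called higher, blue the 8 called lower and grey the 34 not called; the calls range from -0.54 (PSMB10) to 0.47 (PSMC6).

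Among the chaperones that assemble the particle, 1 of 7 fell (14.3%, against 15.8% of all tested genes) and 0 rose (against 16.1%). PSMD5, which binds the ATPase PSMC2 while the base is built (chromosome 9, 120815496 to 120842984, minus strand, ENSG00000095261), had 37.8, 41.4 and 37.2 CPM in PM2.5 replicates 1 to 3, against 53.3, 52.5 and 52.5 CPM in Control replicates 1 to 3. The Control libraries lay close together, and all PM2.5 libraries lay below them. The 3 base chaperones summed to 93.9, 92.6 and 89.8 CPM in PM2.5 replicates 1 to 3, against 108, 111 and 101 CPM in Control replicates 1 to 3, also with no overlap. That sum contains PSMD5 and is no separate support. It averaged 92.1 CPM in PM2.5 and 106.8 CPM in Control libraries, and PSMD5 alone averaged 38.8 and 52.8 CPM. PSMD5 fell 1.36-fold (log2 change -0.45 ± 0.10 (SE), adjusted p = 0.00223) and was called in all 14 alternative settings. The other base chaperones did not pass the test, and their signs depend on the setting. PSMD10 (gankyrin) had 48.8, 45.3 and 44.7 CPM in the PM2.5 libraries and 47.4, 51.2 and 42.1 CPM in the Control libraries (log2 change -0.02 ± 0.10, SE). PSMD9 had 7.397, 5.88 and 7.95 CPM in the PM2.5 libraries and 7.64, 6.88 and 6.64 CPM in the Control libraries (log2 change 0.01 ± 0.17), and both overlapped between the groups. Exons of other genes cover 58.7% of the coding bases of PSMD9.

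The chaperones that build the alpha ring work in pairs. PSMG1 and its partner PSMG2 had estimates of -0.35 ± 0.14 and -0.17 ± 0.10 on the log2 scale (SE). PSMG1 had 11.1, 12.1 and 12.7 CPM in PM2.5 replicates 1 to 3, against 13.8, 17.2 and 14.7 CPM in Control replicates 1 to 3, with no overlap, and did not pass the test (adjusted p = 0.061 by edgeR). PSMG2 had 44.7, 44.2 and 44.1 CPM in PM2.5 replicates 1 to 3, against 53.5, 51.5 and 44.3 CPM in Control replicates 1 to 3, and Control replicate 3 was among the PM2.5 libraries. PSMG2 was called without that library, at -0.25 (adjusted p = 0.0468 by edgeR). The second pair, PSMG3 and PSMG4, was not called either, with estimates of -0.07 ± 0.12 and -0.09 ± 0.13. PSMG3 had 29.3, 33.8 and 33.3 CPM in the PM2.5 libraries and 39.1, 33.5 and 29.1 CPM in the Control libraries. PSMG4 had 18.3, 17.2 and 16.9 CPM in the PM2.5 libraries and 17.6, 21.6 and 16.5 CPM in the Control libraries. The groups overlapped for both. The median of the 7 assembly chaperones was -0.09, and -0.18 without Control replicate 3.

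Of the 5 activator and inhibitor genes 1 rose and 1 fell (20% each, against 16.1% higher and 15.8% lower among all tested genes). PSME4 (PA200), an activator found in the nucleus (chromosome 2, 53864067 to 53970840, minus strand, ENSG00000068878), had 86.8, 102 and 67.4 CPM in PM2.5 replicates 1 to 3, against 57.7, 61.5 and 67.8 CPM in Control replicates 1 to 3. PM2.5 replicate 3 was just below Control replicate 3, while PM2.5 replicates 1 and 2 were above all Control libraries. PSME4 rose 1.37-fold (log2 change 0.45 ± 0.13 (SE), adjusted p = 0.0127). Without PM2.5 replicate 2 it was estimated at 0.31 and no longer called (adjusted p = 0.0797 by edgeR). PSME3 (PA28 gamma), another nuclear activator (chromosome 17, 42824385 to 42843758, plus strand, ENSG00000131467), had 85.98, 90.2 and 92.9 CPM in PM2.5 replicates 1 to 3, against 105, 109 and 112 CPM in Control replicates 1 to 3. It fell 1.21-fold with no overlap (log2 change -0.27 ± 0.09 (SE), adjusted p = 0.0277), and the call was lost without PM2.5 replicate 1 or 2 or Control replicate 1 or 2, at adjusted p up to 0.197.

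PSME1 and PSME2, the interferon-inducible PA28 alpha and beta chains that combine into 1 ring, lie close together on chromosome 14 on opposite strands. PSME1 had 211, 189 and 221 CPM in the PM2.5 libraries and 218, 229 and 175 CPM in the Control libraries, and its estimate was -0.0008 with an SE of 0.11, of a sign that depends on the scaling. PSME2 had 75.01, 73.5 and 78.9 CPM in the PM2.5 libraries and 90.2, 88.1 and 76.7 CPM in the Control libraries, and was estimated at -0.17 ± 0.10 (adjusted p = 0.203). The inhibitor PSMF1 (PI31) had 127, 117 and 138 CPM in PM2.5 replicates 1 to 3, against 159.7, 158 and 131 CPM in Control replicates 1 to 3, and missed the threshold (log2 change -0.23 ± 0.10 (SE), adjusted p = 0.094). For PSME2 and PSMF1 Control replicate 3 lay within the PM2.5 range. Without it both fell, by 0.24 and 0.32 on the log2 scale (adjusted p = 0.0379 and 0.0105 by edgeR).

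Levels per length are CPM divided by the kilobases of summed exon length. On that scale PSMB7 had rank 3 in PM2.5 and rank 1 in Control libraries, at a level of 127 ± 6.65 in PM2.5 and 163 ± 10.6 in Control libraries. PSMA7 reached 144 ± 6.79 in PM2.5 and 152 ± 16.1 in Control libraries, and PSMD2 134 ± 8.92 in PM2.5 and 127 ± 5.45 in Control libraries. In Control libraries PSMB7 and PSMA7 did not differ beyond their SDs, nor did PSMB3 and PSME1, at 118 ± 19.1 and 117 ± 16.1. The lowest tested members were PSMA2, PSMA6 and PSMD9, all with overlapping exons of other genes. Between replicates the CV of a member had a median of 6.44% in PM2.5 and 7.45% in Control libraries.

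Base composition went along with the changes. Across the 44 tested members, the Spearman correlation of the log2 fold change with the GC content of the annotated transcripts was -0.54, and with the span of the gene 0.38. Over all 14973 tested genes with a transcript sequence these were -0.18 and 0.14. The points share the same 6 libraries, so no p is given. In the 22 members with the lower GC content (39.5% to 48%) the median log2 fold change was 0.045, with 2 called higher and 2 lower. In the 22 with the higher GC content (49.2% to 62%) it was -0.165, with 0 called higher and 6 lower. Over all tested genes, of any GC content, 16.1% were called higher and 15.8% lower. The shares among all genes of like GC content were not computed, so these counts are not set apart from other genes. PSME4 and PSMC6, the members that rose, had 39.5% and 40.2% GC, and PSMB10, with the largest fall, had 62%. The part of base composition in the calls was not tested.

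**Figure D5:**
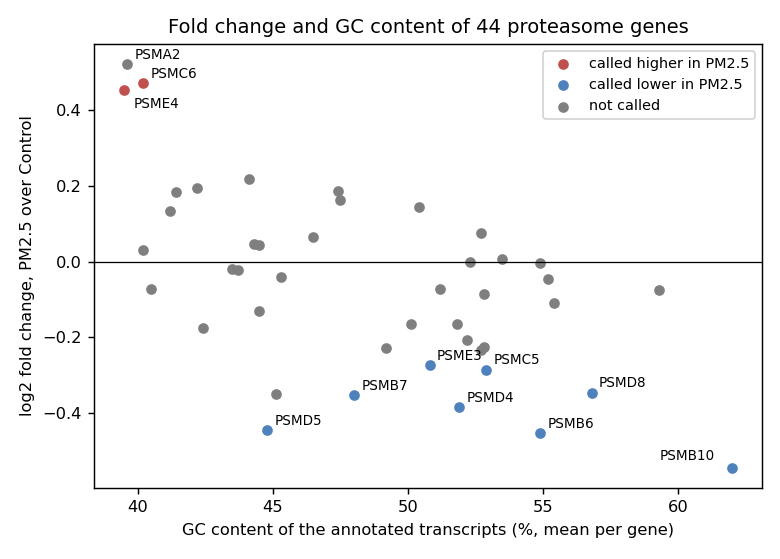
Log2 fold change (PM2.5 over Control) against the mean GC content of each gene's annotated transcripts for the 44 tested members, with the called members and PSMA2 named. Members called higher sit at 39.5% and 40.2% GC, and most members called lower sit above 48%.

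Of 15 factors that work with the proteasome but fall outside the naming rule, 1 rose and 1 fell. That is 6.67% each, against 16.1% higher and 15.8% lower among all tested genes. PAAF1, a chaperone of the base ATPases, fell, with 15.97, 16.97 and 15.03 CPM in PM2.5 replicates 1 to 3, against 25.8, 19.1 and 25.5 CPM in Control replicates 1 to 3 (log2 change -0.55 ± 0.13 (SE), adjusted p = 0.00519) and no overlap between the groups. USP14, a deubiquitinase bound to the cap, rose, with 84.3, 89.2 and 79.9 CPM in PM2.5 replicates 1 to 3, against 70.1, 72.5 and 66.1 CPM in Control replicates 1 to 3 (log2 change 0.28 ± 0.09 (SE), adjusted p = 0.0294), a call lost without PM2.5 replicate 1 or 2 or Control replicate 1 or 2 and with no filter on low counts, at adjusted p up to 0.105. POMP, the maturation factor of the core, averaged 92.5 ± 3.62 CPM in PM2.5 and 99.96 ± 9.55 CPM in Control libraries, and the ubiquitin receptor ADRM1 averaged 137 ± 9.91 CPM in PM2.5 and 134 ± 7.25 CPM in Control libraries, with estimates of -0.11 ± 0.10 and 0.02 ± 0.09. Exons of LAMA5, on the opposite strand, cover 11.4% of the exonic bases of ADRM1, and LAMA5 was estimated at 1.63. Without a stated strand setting the level and estimate of ADRM1 are uncertain.

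A list of genes linked to the transcription and processing of proteasome genes had 6 of 17 tested higher and 2 lower. These are 35.3% and 11.8%, against 16.1% and 15.8% of all tested genes, with a median log2 fold change of 0.25. The list was chosen with earlier results of these data known, so its share of higher calls is no independent support. NFE2L1 itself had 992, 973 and 1035 CPM in PM2.5 replicates 1 to 3, against 873, 922 and 831 CPM in Control replicates 1 to 3. The groups did not overlap, but the change missed the threshold (log2 change 0.19 ± 0.10 (SE), adjusted p = 0.14), and of the settings tried passed only with library totals in place of TMM factors (0.22, adjusted p = 0.0312 by edgeR). DDI2, the protease that activates it, averaged 26.3 ± 4.51 CPM in PM2.5 and 22.1 ± 0.462 CPM in Control libraries (log2 change 0.25 ± 0.13), and NFE2L2 (NRF2) averaged 62.5 ± 11.9 CPM in PM2.5 and 51.8 ± 3.22 CPM in Control libraries (log2 change 0.27 ± 0.12). NFE2L2 was called without PM2.5 replicate 3, at 0.42 (adjusted p = 0.00726 by edgeR).

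The related factor NFE2L3 rose 1.87-fold, with 285, 271 and 270.0 CPM in PM2.5 replicates 1 to 3, against 141, 146 and 155 CPM in Control replicates 1 to 3 (log2 change 0.90 ± 0.09 (SE), adjusted p = 1.56e-06). The groups did not overlap. The small Maf partner MAFK and the repressor BACH1, which bind the same elements, rose by 0.73 ± 0.10 and 0.93 ± 0.12 on the log2 scale (SE). The other small Maf genes, MAFG and MAFF, named after their values were seen, were not called (0.22 ± 0.09 and 0.12 ± 0.11). SEL1L, part of the complex that exports proteins from the endoplasmic reticulum for degradation, rose by 0.94 ± 0.12. The 2 that fell, named after their values were seen, were KEAP1, the adaptor that marks NFE2L2 for degradation (-0.84 ± 0.12), and the NF-Y subunit NFYC (-0.50 ± 0.12). Of the other NF-Y subunits, also named after their values were seen, NFYA rose by 0.37 ± 0.10 (adjusted p = 0.0077 by edgeR) and NFYB was estimated at 0.43 ± 0.16 (adjusted p = 0.0505), which passed in 6 of the 14 alternative settings, at adjusted p from 0.0064 to 0.0475.

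Of 17 genes that carry ubiquitinated proteins to the proteasome or to autophagy 2 rose (11.8%, against 16.1% of all tested genes) and 5 fell (29.4%, against 15.8%). VCP (p97), the unfoldase that extracts ubiquitinated proteins, rose 1.48-fold, with 819, 780.1 and 904 CPM in PM2.5 replicates 1 to 3, against 594, 606 and 493 CPM in Control replicates 1 to 3 (log2 change 0.56 ± 0.11 (SE), adjusted p = 0.000808). Its cofactor UFD1 rose by 0.27 ± 0.09 (SE, adjusted p = 0.0378 by edgeR). That call was lost with no filter on low counts and without any of the libraries except PM2.5 replicate 3, at adjusted p up to 0.155. The autophagy receptor SQSTM1 (p62) fell 2.02-fold, with 1184, 1142 and 1299 CPM in PM2.5 replicates 1 to 3, against 2568, 2436 and 2306 CPM in Control replicates 1 to 3 (log2 change -1.01 ± 0.10 (SE), adjusted p = 2.01e-06). Neither VCP nor SQSTM1 overlapped between the groups. The receptor NBR1 fell by 0.40 ± 0.09, and the proteasome shuttle UBQLN2 by 0.43 ± 0.09 on the log2 scale. The VCP cofactor UBXN1 fell by 0.39 ± 0.10, a call lost without PM2.5 replicate 1 or Control replicate 1 (adjusted p = 0.0528 and 0.0548 by edgeR), and it and UFD1 were named after their values were seen. Of the 6 genes for ubiquitin and its activating enzymes 1 rose (16.7%, against 16.1% of all tested genes) and 0 fell (against 15.8%). UBA6 rose 1.7-fold, with 55.2, 75.95 and 48.9 CPM in PM2.5 replicates 1 to 3, against 34.1, 31.1 and 40.9 CPM in Control replicates 1 to 3 (log2 change 0.76 ± 0.15 (SE), adjusted p = 0.00088 by edgeR). Without Control replicate 3, 4 of the other 5 fell.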

How the data were processed

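The deposited table holds the authors' raw counts for every gene in 6 libraries, per the file headers, with gene lengths and positions. GRCh38 is the build in the submitters' processing notes, while the aligner, the counting tool and its strand setting are not stated in the sources used. Columns were matched to samples by title. All 58735 identifiers matched GENCODE release 29 in position, and exon overlap and GC content were taken from it. In R 4.3.3, edgeR 4.0.16 was run with filterByExpr (minimum count 10, minimum total 15), TMM factors (0.962 to 1.047) and a two-sided quasi-likelihood test between the groups. Adjusted p-values (Benjamini-Hochberg) run over all 14975 tested genes, with a threshold of 0.05. Each SE was obtained as |log2 fold change| over the root of the F statistic. Counts of replicate pairs differed beyond sampling noise (chi-square per degree of freedom 5.74 to 36.3), so each library counts as 1 replicate. The members, gene lists and naming rule were chosen with earlier results of these data known. By that rule, library values are given for the called members with the smallest p, the catalytic subunits, PSMD4, PSMD14, the activators and chaperones, and library values or fold changes for up to 4 called genes with the smallest p in each further list. The values of 1 gene counted in a further list are not reported here. Alternatives were other scalings and filters, DESeq2 1.42.0, limma-voom (limma 3.58.1), a replicate block, and leaving out each library.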

Additional observations from a re-analysis of the deposited data

How the results depend on the processing

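The 10 member calls (2 higher, 8 lower) were the same with DESeq2 size factors, library totals, upper-quartile factors, the DESeq2 Wald test, limma-voom, no low-count filter and a stricter one. Replicate numbers did not pair the libraries, since same-numbered deviations correlated at 0.0075, -0.049 and -0.158, and no library correlated best with its own number. With a replicate block 7 members fell and 2 rose, PSME3 being lost (adjusted p = 0.0508 by edgeR). The block also ended the calls of PSMB9 (adjusted p = 0.0718) and UFD1 (adjusted p = 0.0583), so that 1 shuttle gene rose. Leaving out each library in turn gave 1 to 3 members higher and 4 to 15 lower, and 1448 (without PM2.5 replicate 1) to 2680 lower calls over all genes. Among factors outside the naming rule it gave 0 to 1 higher and 1 to 2 lower, among ubiquitin genes 0 to 4 lower, and among shuttle genes 1 to 3 higher and 3 to 6 lower. With no filter on low counts 0 factors and 1 shuttle gene rose. The cause of these losses was not tested.

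Leaving out each library gave medians of -0.114 to -0.0107 for all members, -0.0635 to 0.018 for the alpha ring (-0.0572 with the stricter filter, which drops PSMA2 and PSMA6), -0.00149 to 0.0507 for the base, 0.0752 to 0.149 for the lid and -0.178 to -0.0856 for the assembly chaperones. Genes near 0 changed sign. PSME1 was at 0.0103 with DESeq2 size factors, 0.0269 with library totals, 0.0200 with upper-quartile factors, 0.00656 in DESeq2, 0.00553 in limma-voom, 0.0151 with the stricter filter and 0.00547 with the replicate block. PSMD10 was at 0.00734 with library totals, and PSMD9 at -0.00377 with no filter and -0.00211 with the replicate block. Leaving out each library gave -0.113 to 0.074 for PSME1, -0.0956 to 0.0456 for PSMD10, -0.0874 to 0.124 for PSMD9, -0.178 to 0.037 for PSMG3, -0.166 to 0.033 for PSMG4 and -0.0213 to 0.083 for ADRM1. Depth limits PSMA2, PSMA6, PSMB10 and PSMD9 most, as the tested members with the lowest counts.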
